A study of Homo sapiens with 12 samples.

Results

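Collagen genes were followed here through 2 maps of lamina-associated domains (LADs), regions of the genome held at the nuclear lamina. The members are the protein-coding genes whose symbol has the form COL, a number, A and a number, which gave 44 genes of 28 collagen types among 19974 protein-coding genes on the autosomes and X. The maps came from H9, a human embryonic stem cell line, kept without further treatment in RSeT (naive state) or in mTeSR (primed state). Both states come from 1 cell line, and with 3 LMNB1 and 3 Dam-only libraries a state the labels describe 12 libraries, without saying whether these were separate cultures. In the LMNB1 libraries an antibody against lamin B1 tethers the Dam methylase to the lamina, where it marks adenines in GATC sites, while free Dam in the Dam-only libraries controls for accessibility. The deposited data hold 1 list of LAD intervals per state, in steps of 10 kb and without signal or replicates: 9178 LADs over 1438 Mb in naive and 5671 LADs over 1319 Mb in primed cells. The labels name the lists of each state differently from the deposited ones, and whether these are the same version is not known. Differences between the states therefore describe 2 lists and carry no test, the read depth behind a window is unknown, and a window that could not be called looks the same as one away from the lamina. The lists hold no expression, so the labelled cell states could not be checked against marker genes.

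Collagens are extracellular proteins built from 3 polypeptide chains wound into a triple helix, and in many types the chains come from different genes. Fibrillar collagens assemble into the rope-like fibrils of bone, cartilage, skin and tendon, type IV collagens form the sheet-like network of basement membranes, and other classes sit on fibrils, anchor epithelia or span the cell membrane. Most tissue-specific chains are made by lineages that form later than embryonic stem cells, whereas the widespread type IV chains belong to the first basement membranes of the embryo.

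A larger share of collagen genes than of all protein-coding genes lay in LADs. A gene counted as inside where LADs held 50% or more of its body. By this rule 21 of 44 collagen genes (47.7%) lay in naive LADs, where 18.9% of all protein-coding genes did, and 18 (40.9%) lay in primed LADs, where 17.3% of all protein-coding genes did. All 18 were shared (background 15.4%), 3 were in naive LADs only (background 3.44%), 0 in primed LADs only (background 1.89%) and 23 in neither (background 79.3%). The naive-only count was 1 rather than 3 when LADs less than 50 kb apart were joined, COL22A1 being the gene left. That share, 2.27%, lay below the 4.16% of all genes in naive LADs only under the same setting. Without LADs under 50 kb the count was 4 of 44, beside 2.80% of all genes. How the naive-only count compares with the background thus depends on the setting, and it does not firmly set the collagens apart. Members shared LADs with each other, and with collagen genes less than 100 kb apart counted as 1 locus, 16 of 37 loci were in naive and 14 of 37 in primed LADs.

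Collagen genes are long, and long genes were more often in LADs, so the share inside is given beside that of genes of like length. The median collagen gene spanned 145 kb, against 24.2 kb over all protein-coding genes. Of the 26 collagen genes of 100 kb or longer, 17 (65.4%) were in naive and 14 (53.8%) in primed LADs, beside 40.3% and 35.2% of all protein-coding genes of that length. Of these 26, 14 were inside in both states, 3 in naive only, 0 in primed only and 9 in neither, against backgrounds of 33.2%, 7.04%, 1.94% and 57.8%. Of the 18 shorter ones 4 (22.2%) were inside in each state, beside 14.5% of all shorter genes in naive and 13.7% in primed, and in both states these were the same 4 genes (background 11.8%). None of the shorter ones was called in naive only (background 2.71%) or primed only (background 1.88%), and 14 were in neither (background 83.6%). Within the family, those inside in both states had a median length of 215 kb (36.3 to 494 kb) and those outside in both of 51.8 kb (16.8 to 353 kb), so the lengths overlapped. Whether the remaining distance from the background exceeds that of other gene families was not tested.

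Most collagen genes were covered fully or not at all in both lists, though a smaller share than of all genes. Of the 44 genes, 13 were covered at 100% in both lists, against a background of 10.2%, and 22 at 0% in both, against a background of 74.4%. The remaining 9 (20.5%) were covered in part in at least 1 state, against a background of 14.1%. Coverage was higher in naive for 8 of these, and higher in primed for 1, COL25A1. The 8 are not separate loci, since COL4A5 with COL4A6 and COL6A5 with COL6A6 are neighbours, and COL17A1 was touched by only 1 naive LAD of 10 kb. The naive list is also the larger one, 1438 Mb against 1319 Mb, and the same directions were not counted over all genes. Over the 6.96 Mb of collagen gene bodies, 66.4% lay in naive and 57.1% in primed LADs, beside 39.2% and 35.0% over all protein-coding gene bodies. In bases, 694 kb of collagen gene body (9.97%) was in naive LADs only and 47.5 kb (0.683%) in primed LADs only, beside 6.92% and 2.77% over all gene bodies. Over all protein-coding genes of 100 kb or longer these shares were 8.55% and 2.99%. LADs of both states held 56.4% of collagen bases, beside 41.8% over all genes of 100 kb or longer. The 3 genes called in naive only held 433 kb of the 694 kb.

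**Figure D1:**
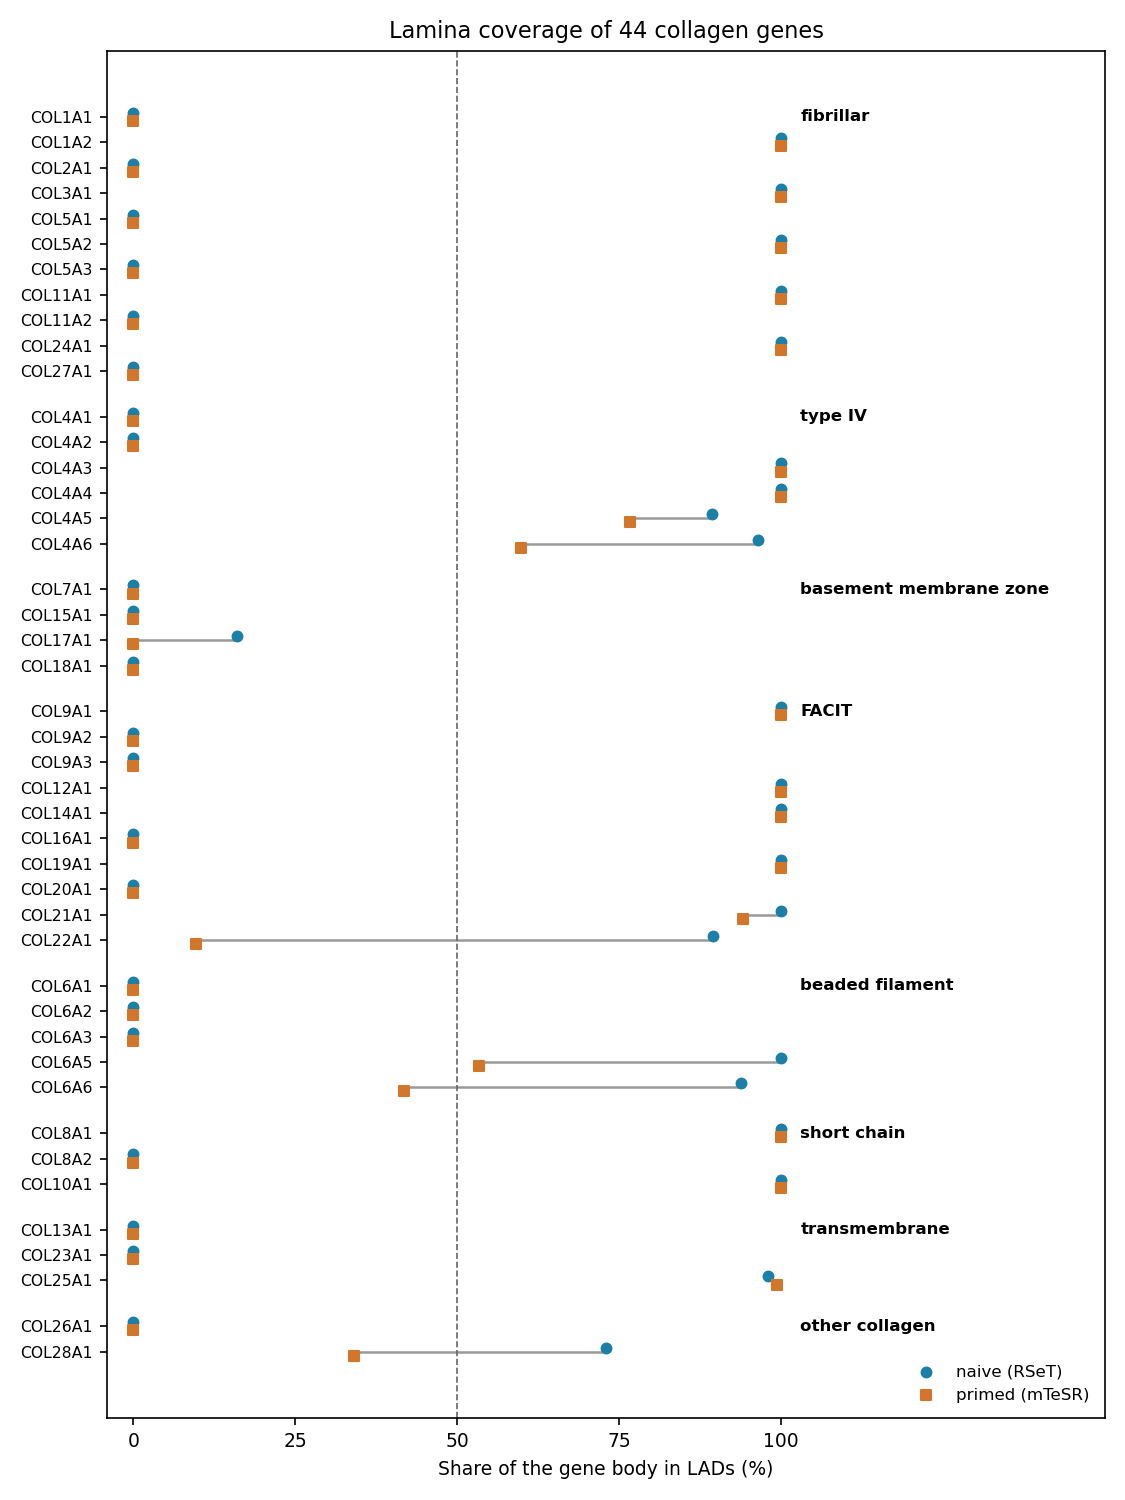
Share of each collagen gene body lying in LADs (x axis, percent) for 44 genes grouped by structural class (y axis), with circles for naive and squares for primed cells. A grey line joins the 2 values and the dashed line marks the 50% needed for a call. The 35 genes with equal values sit at 0% or 100%, and the longest line is that of COL22A1.

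The covered share of every fibrillar gene was equal in both states. Of the 11 fibrillar genes, 5 were covered at 100% in both lists (background 10.2%) and 6 at 0% in both (background 74.4%). Most protein-coding genes fell in 1 of these 2 groups, so equal shares are not particular to this class. The 5 inside were COL1A2, a chain of type I collagen, the main collagen of bone, skin and tendon (chromosome 7, 94394895 to 94431227); COL3A1 of vessel walls and skin (chromosome 2, 188974373 to 189012746); COL5A2, whose type V product takes part in fibril assembly (chromosome 2, 189031898 to 189441111); COL11A1 of cartilage fibrils (chromosome 1, 102876473 to 103108522); and the minor fibrillar gene COL24A1 (chromosome 1, 85729233 to 86156984). The 6 outside were COL1A1, the partner chain in type I collagen, COL2A1, the main cartilage collagen, COL5A1, COL5A3, COL11A2 and COL27A1. Of these, COL2A1 was the nearest to a LAD in naive cells, 373 kb away against 1093 kb in primed. COL27A1 was the nearest in primed cells, with 397 kb in naive against 177 kb in primed.

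Type IV genes, those of the basement membrane network, were inside in 4 of 6 cases in each state. All 6 are longer than 100 kb, and of all protein-coding genes of 100 kb or longer 40.3% were inside in naive and 35.2% in primed. COL4A3 (chromosome 2, 227164624 to 227314792) and COL4A4 (chromosome 2, 226967360 to 227164488), chains of the basement membrane of the kidney glomerulus, were covered at 100% in both. COL4A6 (chromosome X, 108155614 to 108439458), a chain of smooth muscle basement membranes, had 96.5% of its body covered in naive cells and 59.9% in primed cells. COL4A5 (chromosome X, 108439838 to 108697545), which joins the COL4A3 and COL4A4 chains in the glomerulus, had 89.3% covered in naive cells and 76.7% in primed cells. COL4A1 (chromosome 13, 110148963 to 110307157) and COL4A2 (chromosome 13, 110307284 to 110513209), whose chains make up the network found in nearly all basement membranes, were covered at 0% in both. Within type IV, the widespread pair thus lay outside and the 4 chains of restricted tissues inside. This rests on 3 loci and does not extend to the whole family, since COL2A1 of cartilage was also outside in both states. COL4A1 was also the uncovered collagen gene closest to a LAD, 19.0 kb away in naive cells and 69.0 kb in primed cells.

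The 3 head-to-head pairs were those of type IV, in which a minus-strand and a plus-strand gene start beside each other and are known to share a promoter region. Both genes had the same call in 3 of 3 pairs, as in 92.6% of 810 head-to-head pairs of protein-coding genes. Both were in LADs of both states in 2 of 3 collagen pairs, against 9.14% of all such pairs. The starts lay 127 bases apart in COL4A1 with COL4A2, 419 in COL4A4 with COL4A3 and 380 in COL4A6 with COL4A5. The sequences below, from RefSeq (GRCh38.p14), run from 250 bases before to 50 bases after the start of the plus-strand partner, and on X of both partners. They are shown because these regions lie outside LADs in both states, inside in both, and inside in naive only.
COL4A2 (chr13:110307034-110307333, plus strand): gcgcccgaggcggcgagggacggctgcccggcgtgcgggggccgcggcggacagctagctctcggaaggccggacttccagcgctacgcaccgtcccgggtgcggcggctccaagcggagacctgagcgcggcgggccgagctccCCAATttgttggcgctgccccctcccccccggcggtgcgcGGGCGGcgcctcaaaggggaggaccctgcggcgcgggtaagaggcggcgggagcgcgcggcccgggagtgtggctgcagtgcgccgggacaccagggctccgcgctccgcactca
COL4A3 (chr2:227164374-227164673, plus strand): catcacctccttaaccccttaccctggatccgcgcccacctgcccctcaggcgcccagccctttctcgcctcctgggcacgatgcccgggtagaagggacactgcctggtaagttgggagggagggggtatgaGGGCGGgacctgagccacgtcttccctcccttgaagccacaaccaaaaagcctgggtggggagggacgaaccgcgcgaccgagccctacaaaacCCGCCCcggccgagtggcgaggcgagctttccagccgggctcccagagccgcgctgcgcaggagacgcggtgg
COL4A5 (chrX:108439588-108439887, plus strand): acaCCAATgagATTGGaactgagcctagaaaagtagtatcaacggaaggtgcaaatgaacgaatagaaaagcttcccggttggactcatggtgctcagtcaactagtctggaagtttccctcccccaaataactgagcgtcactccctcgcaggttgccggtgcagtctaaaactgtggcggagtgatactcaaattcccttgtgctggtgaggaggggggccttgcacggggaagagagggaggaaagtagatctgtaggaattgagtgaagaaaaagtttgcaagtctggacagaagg
COL4A6 (chrX:108439409-108439708, minus strand): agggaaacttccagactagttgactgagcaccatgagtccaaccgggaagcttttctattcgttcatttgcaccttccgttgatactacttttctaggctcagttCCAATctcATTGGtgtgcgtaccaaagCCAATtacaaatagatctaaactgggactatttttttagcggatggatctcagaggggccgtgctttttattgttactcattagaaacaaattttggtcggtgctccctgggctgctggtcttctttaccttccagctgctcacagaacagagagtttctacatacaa
Capitals mark motifs found on either strand. GC boxes were searched as GGGCGG and its reverse complement, CCAAT boxes by these letters and their reverse complement, and TATA boxes as the letters TATAAA and their reverse complement. Overlapping TATA boxes of opposite strands each count. The COL4A2 window, outside LADs, held 45 CpG pairs, 1 GC box and 1 CCAAT box. The COL4A3 window, deep inside a LAD in both states, held 24 CpG pairs and 2 GC boxes. The COL4A5 and COL4A6 windows, which overlap, held 8 and 7 CpG pairs, 2 and 3 CCAAT boxes and 0 GC boxes. GC boxes were present in 58.5%, CCAAT boxes in 36.3% and TATA boxes in 9.64% of the 15812 promoter windows available. GATC, the only sequence the assay can read, occurred 0 times in the COL4A2 window, 1 time in those of COL4A3 and COL4A5 and 2 times in that of COL4A6, and in 39.7% of all windows. These windows are far below the 10 kb step of the lists.

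The starts of these pairs were placed as follows. Those of COL4A3 and COL4A4 were over 305 kb from the nearer edge of a LAD of 2860 kb in naive and 2880 kb in primed. Those of COL4A1 and COL4A2 lay beyond the last naive LAD of chromosome 13, 177 kb past its end, and in a 4030 kb stretch between primed LADs. Those of COL4A5 and COL4A6 lay inside a 170 kb LAD in naive, over 79 kb from its edges, but in a 20 kb gap between primed LADs (108430001 to 108450000). In primed, COL4A6 was touched by 7 LADs, of which 5 were single windows, and COL4A5 by 4, the last of them a LAD of 1070 kb entered by the far end of the gene. In naive these genes were touched by 2 and 3 LADs. The bodies of both genes thus counted as inside in both states, with their shared start inside in naive only. Without LADs under 100 kb, COL4A6 counted in naive only and COL4A5 in primed only.

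Starts of collagen genes in LADs were fewer in primed than in naive cells. Of the 32 members with a start in the promoter table, 13 (40.6%) had it in a naive and 9 (28.1%) in a primed LAD, beside 17.8% and 17.4% of all genes in the table. It was in naive LADs only for 4 (12.5%, background 3.14%) and in primed LADs only for 0 (background 2.74%). Among the same 32 genes, 2 were called in naive only by their bodies. The 4 starts were those of COL4A5 and COL4A6, which share 1 locus, COL6A6 and COL25A1. The COL25A1 start (minus strand, 109302658) was 17.3 kb inside a naive LAD but in a single 10 kb gap between primed LADs, so the difference rests on 1 window. The COL6A6 start (plus strand, 130517177) was 113 kb inside a naive LAD of 350 kb and in a gap of 40 kb between primed LADs. The primed gaps at the 4 starts measured 10 to 40 kb, so joining LADs less than 50 kb apart closed all 4. Their promoter windows are given because these starts, like those on X, lay in LADs of naive cells only.
COL25A1 (chr4:109302609-109302908, minus strand): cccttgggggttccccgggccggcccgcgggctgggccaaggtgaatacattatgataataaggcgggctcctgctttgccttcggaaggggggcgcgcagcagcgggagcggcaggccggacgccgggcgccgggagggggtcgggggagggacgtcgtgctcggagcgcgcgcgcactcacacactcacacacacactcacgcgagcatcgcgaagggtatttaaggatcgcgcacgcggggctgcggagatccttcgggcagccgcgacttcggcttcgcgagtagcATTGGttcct
COL6A6 (chr3:130516927-130517226, plus strand): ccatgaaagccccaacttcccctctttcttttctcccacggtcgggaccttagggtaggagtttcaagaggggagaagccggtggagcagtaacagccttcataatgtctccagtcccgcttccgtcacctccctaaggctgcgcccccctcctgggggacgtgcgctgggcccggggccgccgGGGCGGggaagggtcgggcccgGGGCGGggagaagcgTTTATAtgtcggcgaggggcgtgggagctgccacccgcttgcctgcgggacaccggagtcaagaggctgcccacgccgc
Capitals are as above. The COL25A1 window held 38 CpG pairs, 1 CCAAT box and 2 GATC sites, and that of COL6A6 24 CpG pairs, 2 GC boxes, 1 TATA box and 0 GATC sites. The G+C share of the 4 windows ran from 43.7% at COL4A6 to 68.3% at COL25A1.

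Set side by side, 4 of 6 type IV genes (66.7%) and 5 of 11 fibrillar genes (45.5%) were in LADs, in each state. By bases the order was the reverse, with 67.9% of type IV and 69.8% of fibrillar gene bodies in naive LADs, and 57.1% and 69.8% in primed LADs. The classes also differ in length, with a median of 202 kb for type IV and 50.9 kb for fibrillar genes, and were not matched for it. All protein-coding genes stood at 18.9% in naive and 17.3% in primed, and those of 100 kb or longer at 40.3% and 35.2%. The classes hold few genes, the type IV genes form only 3 loci, and the difference was not tested. Other collagens of the basement membrane zone were all outside: COL7A1 of the anchoring fibrils, COL15A1, COL18A1 (the source of endostatin) and COL17A1 of hemidesmosomes. With these 4 added, 4 of 10 basement membrane genes were inside in each state. COL17A1 (chromosome 10, 104031286 to 104085880) was the only one of them touched, by a single 10 kb naive LAD over its lower-coordinate end that covered 16.0% of it, and no primed LAD lay within 314 kb.

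**Figure D2:**
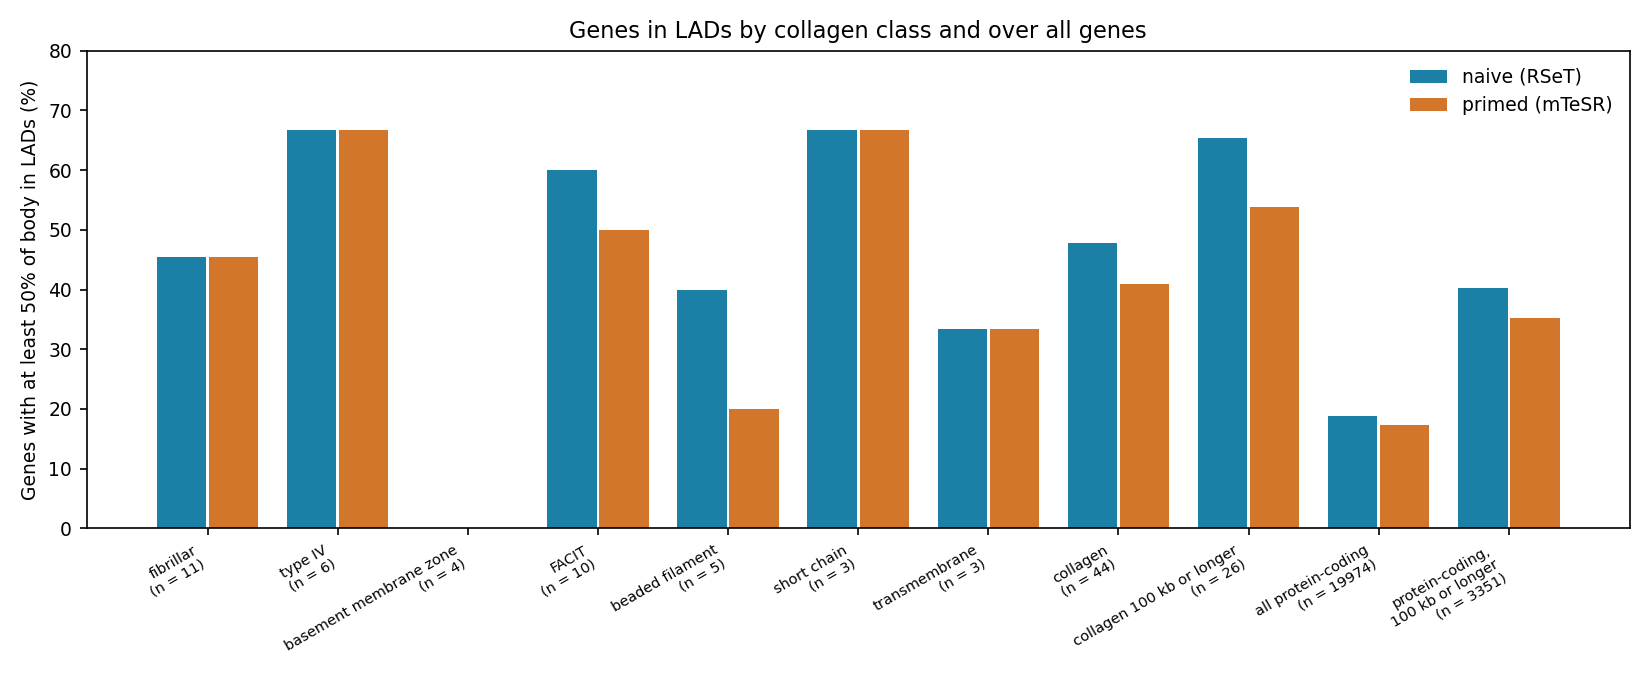
Percent of genes with at least 50% of their body in LADs (y axis) for 7 collagen classes, all collagen genes, those of 100 kb or longer, and the matching backgrounds of all protein-coding genes, with naive bars left of primed bars. Fibrillar and type IV genes stand at the same height in both states, and the basement membrane zone class stands at 0.

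The fibril-associated collagens (FACIT), which sit on the surface of fibrils, had 6 of 10 genes in naive and 5 of 10 in primed LADs. The shares were 18.9% and 17.3% over all protein-coding genes, and 40.3% and 35.2% over those of 100 kb or longer. FACIT genes in naive LADs were longer (88.0 kb at COL9A1 to 346 kb at COL19A1) than the others (16.8 kb at COL9A2 to 51.8 kb at COL16A1). The class was not matched for length or tested. COL12A1 and COL14A1 of dense connective tissue, COL19A1 and COL9A1, a chain of the type IX collagen of cartilage, were covered at 100% in both. COL21A1 had 100% of its body in naive and 94.1% in primed LADs. COL22A1, a collagen of tissue junctions such as those between muscle and tendon, was the member with the widest difference, at 89.6% in naive and 9.75% in primed. It would count as outside in both if 90% of the body were required. COL9A2, COL9A3, COL16A1 and COL20A1 were at 0% in both.

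Among the type VI genes, whose chains form beaded filaments around cells, COL6A1, COL6A2 and COL6A3 were outside in both states. COL6A5 and COL6A6, chains related to the COL6A3 chain, were covered at 100% and 93.8% in naive and at 53.4% and 41.8% in primed. These are the members nearest to the 50% limit, so that COL6A5 counts as inside in both and COL6A6 in naive only. Of the short chain collagens, COL8A1 and COL10A1, a product of hypertrophic chondrocytes, were covered at 100% in both and COL8A2 at 0%. Of the transmembrane collagens, COL25A1 had 98.0% of its body in naive and 99.5% in primed LADs, while COL13A1 and COL23A1 were at 0% in both. COL28A1, which carries von Willebrand factor A domains, had 72.9% of its body in naive LADs and 34.0% in primed ones, while COL26A1 was at 0% in both.

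Chains that share a collagen type were split between the lamina and the rest of the nucleus. In 7 types with more than 1 gene (23 genes in all), at least 1 chain was inside and at least 1 outside in 7 of 7, in each state. COL1A2 was inside at 100% and COL1A1 outside at 0%, although the common type I molecule takes chains of both. COL5A2 was inside while COL5A1 and COL5A3 were outside, COL9A1 inside while COL9A2 and COL9A3 were outside, COL11A1 inside while COL11A2 was outside, and COL8A1 inside while COL8A2 was outside. In type VI, 2 of 5 chains were inside in naive and 1 of 5 in primed, and in type IV 4 of 6 in each. Over the whole family 47.7% of genes were inside in naive and 40.9% in primed, and types with more chains have more room to split. How often unrelated genes with the same share inside LADs would split in this way was not tested.

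The collagen genes inside LADs lay on 8 chromosomes, on which genes at large were more often inside than on the other 9 that carry members. The members lie on 17 chromosomes and those with a member inside were 1, 2, 3, 4, 6, 7, 8 and X, which carry 28 of the 44. The 16 collagen genes on the other 9 chromosomes, among them COL1A1 on chromosome 17 and COL5A3 on 19, were outside in both states. This follows from the way the chromosomes were divided and is not a separate result. Of all protein-coding genes, 25.7% in naive and 24.1% in primed were inside on the 8 chromosomes, and 13.7% in naive and 12.3% in primed on the 9. Chromosome 6 carried 6 members, 5 of them inside in both states and COL11A2, which lies in the gene-rich major histocompatibility region, outside. For collagen genes that no LAD touched, the distance to the nearest one was over 1 Mb for 16 of 22 in naive (72.7%, median 3916 kb, up to 15052 kb) and for 18 of 23 in primed (78.3%, median 4050 kb, up to 16436 kb). Over all protein-coding genes that no LAD touched, it was over 1 Mb for 55.4% in naive (median 1270 kb) and 59.5% in primed (median 1434 kb). The difference was not tested.

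Of 7 pairs of collagen genes less than 100 kb apart, 6 had the same call (85.7%), the exception being COL6A5 with COL6A6. Of 14470 adjacent pairs of protein-coding genes at that distance, 92.1% had the same call, but of the 2760 with a gene inside LADs only 58.8% did. Among the collagen pairs with a gene inside, all but COL6A5 with COL6A6 had the same call. COL3A1 and COL5A2, 19.2 kb apart, lay in 1 LAD of 2130 kb in naive cells (188530001 to 190660000) and of 2990 kb in primed cells (187650001 to 190640000). COL19A1 and COL9A1, tail to tail and 2592 bases apart, lay in 1 LAD of 1500 kb in naive and 5020 kb in primed. COL6A1 and COL6A2 were both outside.

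The 3 genes called in naive LADs only each had some primed coverage, in LADs of 10 to 40 kb. COL22A1 (chromosome 8, 138588235 to 138914041) was covered by 3 naive LADs, the first of 1280 kb running into the gene, and by 2 primed LADs of 40 and 10 kb. In windows of 10 kb, 30 of the 34 it overlaps were in naive LADs, 4 in primed LADs, and 4 in both. Its nearest neighbour, FAM135B, 90.5 kb away, was covered at 100% in both states. The next, KCNK9 and TRAPPC9, 687 and 814 kb away, were at 0% in both. COL22A1 thus lies between a gene fully inside and, much farther off, genes fully outside. COL6A6 (chromosome 3, 130516720 to 130677042) was covered by 2 naive LADs of 350 and 40 kb and by 4 primed LADs of 10 to 30 kb. Its neighbours PIK3R4, 1.89 kb away (85.3% in naive, 11.6% in primed), and ATP2C1 (59.8% and 23.7%) were also in naive LADs only. COL28A1 (chromosome 7, 7338194 to 7543870) was covered by 4 naive LADs of 10 to 70 kb and 6 primed LADs of 10 to 20 kb, and its start lay in a gap in both states. Its neighbours did not follow it: MIOS was at 0% in both, C1GALT1 at 9.44% in naive and 0% in primed, and RPA3 at 24.4% in naive and 71.4% in primed.

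**Figure D3:**
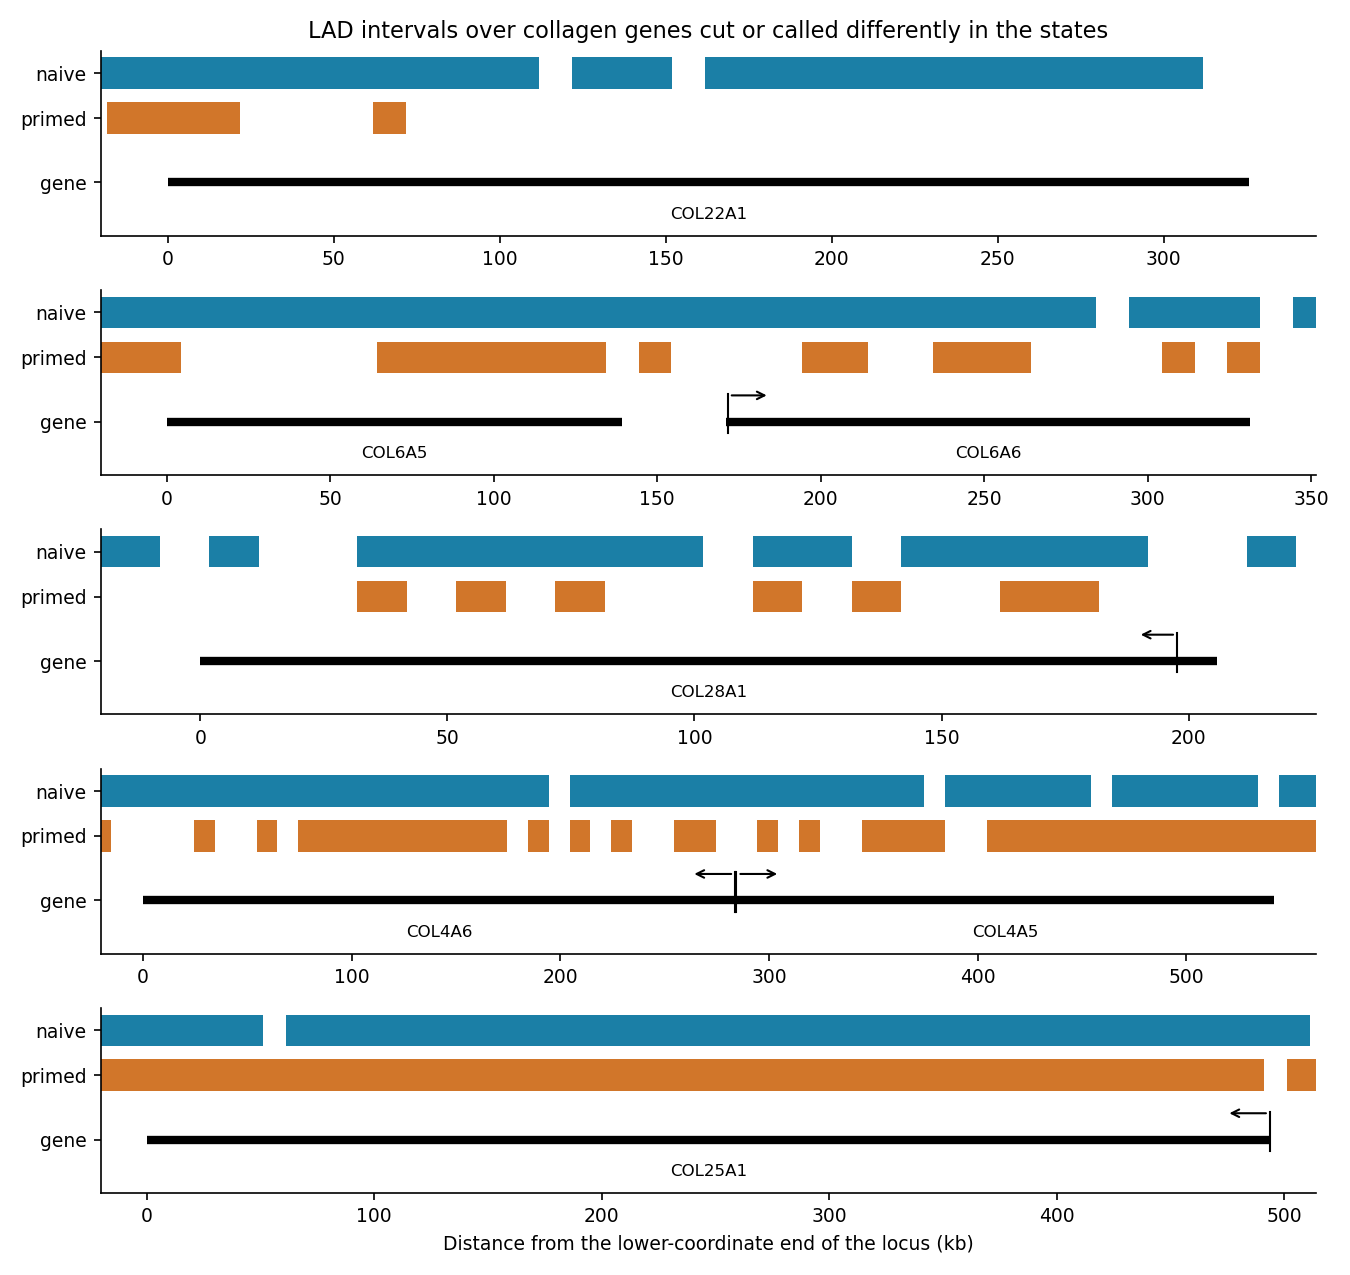
LAD intervals (naive above primed) over 5 collagen loci, with gene bodies as black bars and arrows at the starts that the promoter table gives. The x axis is the distance in kb from the lower-coordinate end of the locus. Primed LADs are short and broken over COL6A5, COL6A6, COL28A1, COL4A6 and the start of COL4A5, nearly absent over COL22A1, and continuous over COL25A1 up to its start.

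Where a collagen gene lay whole in 1 LAD in each state, the primed LAD was the longer one. This held for 13 genes in 10 LADs per state, with a median LAD length of 1385 kb in naive (340 to 2860 kb) and 2830 kb in primed (990 to 5020 kb). The primed LAD was longer in 10 of 10, beside 76.8% of the 759 pairs of LADs that hold a protein-coding gene whole, whose medians were 750 kb in naive and 1870 kb in primed. COL11A1 had the widest contrast as a ratio, in a LAD of 340 kb in naive and 3140 kb in primed, followed by COL19A1 with COL9A1. COL1A2 lay in a LAD of 1060 kb in naive and 3320 kb in primed. In contrast the LAD of COL4A3 and COL4A4 differed by 20 kb, and that of COL8A1 measured 970 kb in naive and 990 kb in primed. COL12A1 (start at 75206053 on chromosome 6) lay 3.95 kb from the edge of its naive LAD and 384 kb from that of its primed LAD. COL10A1 was the reverse, its start lying 373 kb from the edge in naive cells and 12.9 kb in primed cells.

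**Figure D4:**
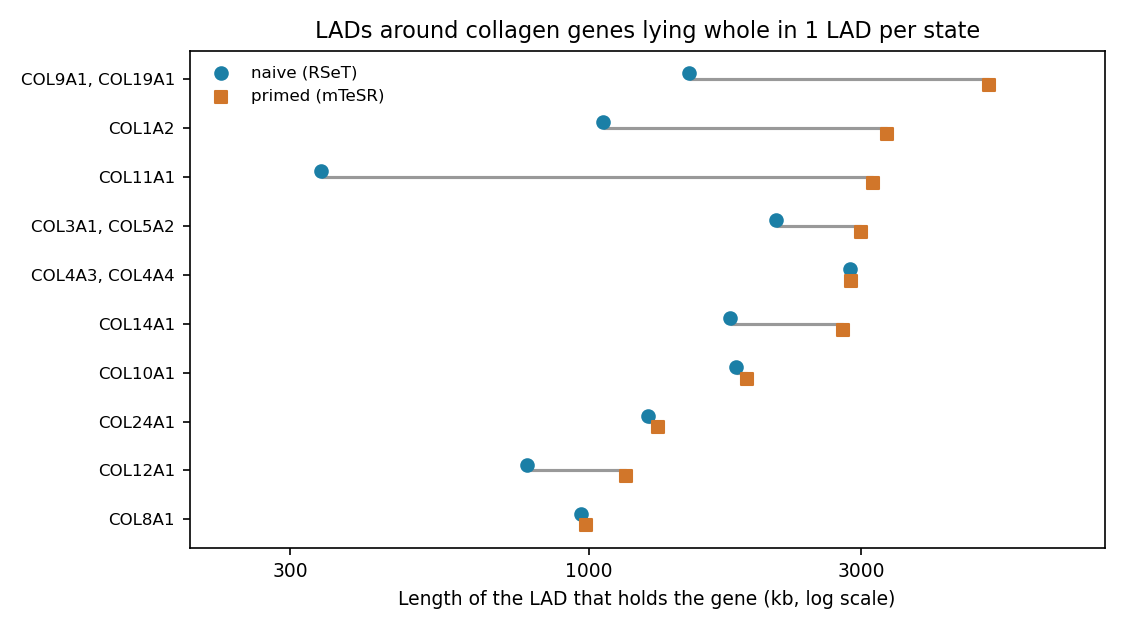
Length of the LAD that holds each collagen gene or pair whole (x axis, kb, log scale), with circles for naive and squares for primed cells. All 10 squares lie to the right of their circles, by 20 kb at COL8A1 and at COL4A3 with COL4A4 and farthest in kb at COL19A1 with COL9A1, at 1500 kb in naive and 5020 kb in primed.

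Promoters of collagen genes outside LADs were richer in G and C than those inside, with much overlap. Over the 300-base windows, the median G+C share was 61.2% (32.3% to 74.0%) for the 12 members in LADs of both states and 72.5% (40.7% to 86.7%) for the 18 outside in both. Over all genes in the table the medians were 55.3% inside and 63.7% outside. The median number of CpG pairs was 15 for the members inside (1 to 38) and 28.5 for those outside (1 to 46), beside 14 and 23 over all genes. GC boxes were found in 4 of 12 members inside (33.3%) and 13 of 18 outside (72.2%), beside 43.1% and 62.1% of all genes. CCAAT boxes were found in 5 of 12 inside (41.7%) and 4 of 18 outside (22.2%), beside 37.5% and 36.1%. TATA boxes were found in 0 of 12 inside and 4 of 18 outside (22.2%), the reverse of the 15.8% and 8.08% of all genes. These are descriptions of windows that share chromosome regions, and they were not tested. COL10A1, inside, and COL28A1, in naive only, had 1 CpG pair each, as had COL17A1 outside.

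**Figure D5:**
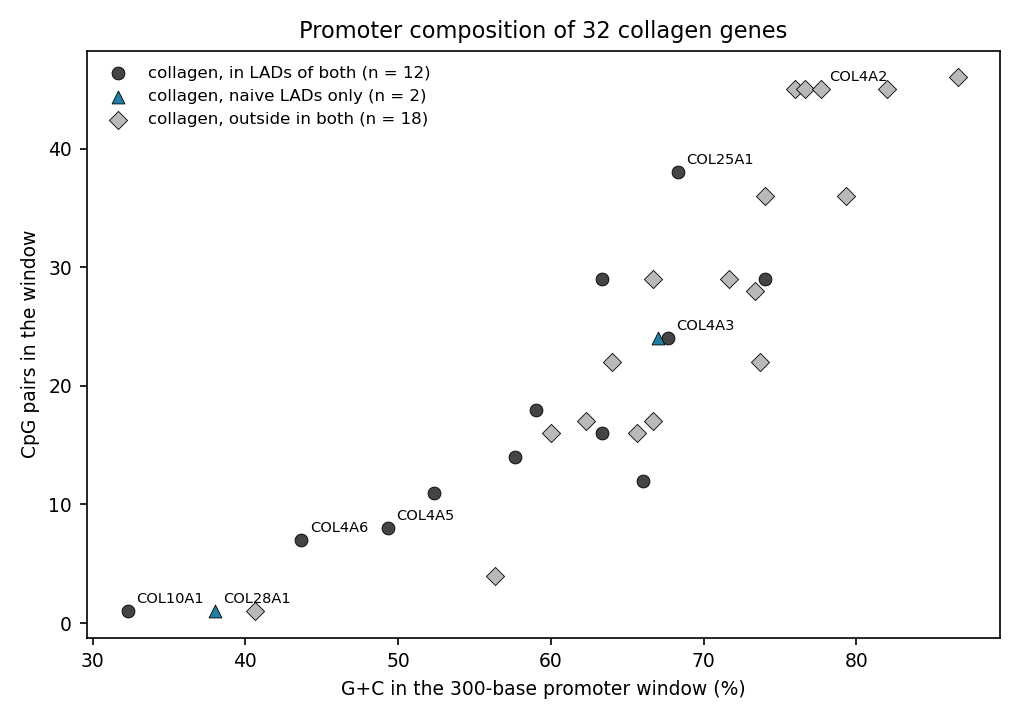
G+C share (x axis, percent) against the number of CpG pairs (y axis) in the promoter windows of 32 collagen genes, with circles for genes in LADs of both states, triangles for naive only and diamonds for genes outside in both. Windows with 40 or more CpG pairs all belong to genes outside LADs, while the low end of both axes holds genes of each kind.

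Taken over all lengths, genes that build, bind and cut collagen were less often in LADs than the collagens, a contrast that was not tested. Most of these genes were under 100 kb. Those of 100 kb or longer were in LADs about as often as collagens of that length, so the contrast did not hold among long genes. Of these long genes only TLL2, ADAMTS2, LOXL2 and ITGA11 were outside in both states. Of 48 such genes, 14 (29.2%) lay in naive LADs and 11 (22.9%) in primed ones, with 11 in both, 3 in naive only and 0 in primed only. All protein-coding genes stood at 18.9% in naive, 17.3% in primed, 15.4% in both, 3.44% in naive only and 1.89% in primed only. Of 17 enzymes and chaperones of chain modification and folding, 3 had naive and 2 had primed LADs over them. PLOD2, a lysyl hydroxylase, and P3H2, a prolyl 3-hydroxylase, were covered at 100% in both, and COLGALT2, which adds galactose to hydroxylysine, at 100% in naive and 9.25% in primed. Of 10 genes of secretion and propeptide removal, 4 lay in naive LADs and 3 in primed ones. The proteases TLL1 (100% in both) and ADAMTS3 (96.5% in naive, 100% in primed) and the secretion factor MIA2 (63.7% and 100%) were in both, and PCOLCE2, an enhancer of propeptide cleavage, at 56.2% in naive and 0% in primed. Of 5 lysyl oxidases, which crosslink collagen, LOX alone was inside, at 100% in both.

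Collagen receptors and collagen-cleaving enzymes were also followed. Of 10 receptors, 3 lay in naive LADs and 2 in primed ones, namely the integrin subunits ITGA1 and ITGA2 at 100% in both and the receptor kinase DDR2 at 100% in naive and 25.6% in primed. Of 6 metalloproteinases, MMP1, MMP8 and MMP13, which lie in 1 cluster on chromosome 11, were at 100% in both, while MMP2, MMP9 and MMP14 were at 0% in both.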

How the data were processed

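Per the labels, H9 cells in 2 states were profiled by pA-DamID in 12 libraries, in 4 groups of 3. The deposited lists hold LAD intervals as other values, start and end coordinates without score, 1 list per state. Per the submitters' processing notes, BWA, SAMtools 1.10, SICER and hg38 were used. Not given in the sources used here are the thresholds, the order of steps and the use of replicates and Dam-only controls, and the read depth is unknown.

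From the lists, the covered share of each gene body was computed for 19974 protein-coding genes of RefSeq GRCh38.p14, whose primary assembly is that of hg38 (autosomes and X, 1-based coordinates), with a call at 50%. Starts and strands came from the RefSeq promoter table, which holds 15812 of these genes and 32 of the 44 members. Overlapping genes count separately in sums of bases. No p-value was computed, since the lists keep no replicates apart. The members, classes and related lists were chosen with earlier results of these data known. Named were all members that differed, all pairs, and listed genes inside LADs, with 3 neighbours of each state-only gene. All 48 related genes matched, CTAGE5 as MIA2. The overlap function was tested on simulated data. Alternatives joined or filtered LADs, changed the share required or used the gene start. Python 3.11.15, numpy 2.4.6, pandas 2.3.3 and matplotlib 3.10.9 were used.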

Additional observations from a re-analysis of the deposited data

How the results depend on the processing

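Of the 44 calls, 39 were kept under all 5 settings (joining across gaps below 50 or 100 kb, dropping LADs below 50 or 100 kb, or both), among them all 23 genes outside and 15 of the 18 inside in both states. COL22A1 kept its naive-only call under all 5, COL6A6 under 2 and COL28A1 under 1. The number of naive-only genes was 1 with LADs less than 50 kb apart joined, less than 100 kb apart joined, joined under 50 kb and then without LADs under 100 kb, and with 25% of the body required, or 2.27% of the 44 against 4.16%, 4.73%, 3.87% and 4.08% of all genes under these settings. It was 4 without LADs under 50 kb and 4 without LADs under 100 kb, against 2.80% and 2.44% of all genes. With 90% of the body required it was again 3, against 2.40% of all genes, but the genes were COL6A5, COL6A6 and COL4A6. COL22A1 and COL28A1 counted as outside in both states there, so the equal count does not mean that the calls were kept. Without LADs under 100 kb, 1 gene, COL4A5, was in primed LADs only. Primed LADs covered 63.1% of collagen gene bases with LADs less than 50 kb apart joined, 64.4% with 100 kb, 63.0% when joined and filtered, 52.5% without LADs under 50 kb and 51.4% without those under 100 kb. Naive LADs covered 61.1% in the last case. With 90% of the body required, 2 type IV genes were in primed LADs. By the window of the gene start, over 32 members, 13 were in naive and 9 in primed LADs, with 2 fibrillar genes in each and 2 type IV genes in primed. Fewer members were measured there, since 12 have no start in the table. Of the head-to-head pairs, 2 of 3 had matching calls without LADs under 50 kb, without LADs under 100 kb and with 90% required. With neighbouring genes counted as 1 locus, an alternative chosen after seeing the data, 16 and 14 of 37 loci were inside. No paired analysis was possible because the lists keep no replicates apart, and leaving out a replicate was not possible for the same reason. Depth behind a window is unknown, so uncovered windows may be uncalled.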
